A study of Mus musculus with 2 samples.

Results

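Dense windows are stretches of 100 kb in which many accessible sites recurred in both thymus libraries. The autosomes were divided from position 1 into 24639 windows of 100 kb, and a window was kept where 15 or more peaks of replicate 1, placed by midpoint, shared at least 1 bp with a peak of replicate 2. This gave 384 windows, 1.56% of all. They held 12042 of the 132737 peaks of replicate 1, of which 6950 were shared, and 8298 of the 69798 peaks of replicate 2. The windows were chosen by the peak calls of both libraries, so counts, promoter shares and heights of the members are given as descriptions, with no test.

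The libraries were DNase-seq from the thymus of B6CASTF1/J females aged 10 days, with 1 group and 2 replicates. B6CASTF1/J is a first-generation cross between a C57BL/6J mouse and a CAST/EiJ mouse, and no treatment or control group belongs to the series. The females are numbered separately in the labels and carry the same donor identifier, so they are treated as 2 samples whose spread may be partly technical. In DNase-seq an endonuclease cuts accessible DNA, a peak is a stretch with many cuts, and a footprint is a short protected stretch inside it. The peak height is the authors' own signal value, whose scaling factor and number of reads are not given in the sources used here. In a tissue, a site open in more cells and a site cut more often per cell cannot be told apart.

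The thymus is where T cells mature, and most of its cells are thymocytes. Genes that define a cell type often lie among many accessible elements, which are promoters, where transcription starts, and distal elements, among them enhancers, silencers and insulators. Clusters of such elements are also found where many short, widely used genes stand side by side.

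The label of the tissue was checked at marker promoters. Peaks lay within 500 bp of a start of all 8 thymocyte markers examined. Their heights ranged between 2.37 at Ptcra and 6.94 at Cd8b1 in replicate 1, and between 1.51 at Cd4 and 9.01 at Cd8b1 in replicate 2. No peak of either replicate lay at the B-cell gene Cd79a, the epithelial genes Foxn1 and Psmb11 or the hepatocyte genes Alb and Apoa1. Of the 8 thymocyte markers, Rag1 was the one with no start in a dense window.

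The sequences below are shown because together they cover the kinds of dense window described here. Only peaks of at most 300 bp that touch no exon of a GENCODE gene, coding or not, were considered. Among these, each was the highest distal peak of its window by the mean height over the library medians. RefSeq tRNA genes were not part of that exclusion. They are the plus strand of mm10, 5′ to 3′. Capitals mark the motifs listed next, searched on both strands, or, in 2 peaks, a tRNA gene of the RefSeq annotation. The other motifs counted further below are not marked, even where their letters occur. The motif letters were CCGGAAG for ETS factors, TGTGGTT for RUNX factors and CTTTGAA for TCF/LEF factors. The E box was searched as CAGCTG and the GATA motif as AGATAA. The first set comes from windows with T-cell genes, and from one without a coding start on the 3′ side of Bcl11b.
Beside Tcf7, chr11:52297461-52297660: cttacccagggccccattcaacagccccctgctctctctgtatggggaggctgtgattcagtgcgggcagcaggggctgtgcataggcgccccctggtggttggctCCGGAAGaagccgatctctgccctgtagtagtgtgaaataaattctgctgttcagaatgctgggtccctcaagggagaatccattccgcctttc
Beside Cd2, chr3:101295601-101295820: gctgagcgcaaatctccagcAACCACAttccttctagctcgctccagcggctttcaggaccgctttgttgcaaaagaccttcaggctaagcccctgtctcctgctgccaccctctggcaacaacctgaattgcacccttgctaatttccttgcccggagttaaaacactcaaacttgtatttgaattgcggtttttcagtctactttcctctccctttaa
Between Cd8b1 and Cd8a, chr6:71341261-71341540: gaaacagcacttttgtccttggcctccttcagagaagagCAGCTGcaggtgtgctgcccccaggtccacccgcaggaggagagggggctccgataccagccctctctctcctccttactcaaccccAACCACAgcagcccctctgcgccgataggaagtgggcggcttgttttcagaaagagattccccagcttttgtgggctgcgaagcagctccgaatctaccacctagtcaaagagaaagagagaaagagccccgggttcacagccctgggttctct
Between Trbc2 and Trbv31, chr6:41554321-41554540: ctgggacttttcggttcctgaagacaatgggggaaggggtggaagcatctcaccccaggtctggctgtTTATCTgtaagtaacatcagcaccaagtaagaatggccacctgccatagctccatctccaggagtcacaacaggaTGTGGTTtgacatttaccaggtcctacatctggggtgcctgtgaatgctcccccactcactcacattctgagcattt
On the 3′ side of Bcl11b, past 3110018I06Rik, chr12:107124441-107124680: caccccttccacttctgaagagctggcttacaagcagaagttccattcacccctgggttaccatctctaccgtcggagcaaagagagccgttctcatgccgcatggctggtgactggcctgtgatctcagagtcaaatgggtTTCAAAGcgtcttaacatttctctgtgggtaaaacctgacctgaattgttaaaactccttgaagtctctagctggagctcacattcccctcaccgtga

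Heights at these sites, replicate 1 then replicate 2, were 4.78 and 3.26 beside Tcf7 and 13.5 and 9.57 beside Cd2. They were 6.23 and 6.77 between the Cd8 genes and 8.08 and 7.06 in the T-cell receptor beta locus. The site on the 3′ side of Bcl11b had 4.44 and 5.63. The Cd2 site was the highest of the 5 in both libraries. The RUNX letters occurred at Cd2, Cd8 and the beta locus, and a match describes letters, not a bound protein. The interval between Trbc2 and Trbv31 is the one known to hold the enhancer of the beta locus.

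The second set comes from windows with other genes.
In the histone cluster, chr13:23521821-23522040: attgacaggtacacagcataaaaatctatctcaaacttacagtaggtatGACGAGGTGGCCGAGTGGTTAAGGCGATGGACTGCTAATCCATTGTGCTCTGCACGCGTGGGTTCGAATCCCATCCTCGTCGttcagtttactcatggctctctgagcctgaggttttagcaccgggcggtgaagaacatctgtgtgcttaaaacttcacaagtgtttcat
Beside Borcs6, chr11:69063021-69063200: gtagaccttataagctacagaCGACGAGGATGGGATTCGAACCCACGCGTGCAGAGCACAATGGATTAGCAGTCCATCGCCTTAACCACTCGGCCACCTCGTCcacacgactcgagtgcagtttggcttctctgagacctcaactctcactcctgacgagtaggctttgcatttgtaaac
Beside Irf2bpl, chr12:86894441-86894620: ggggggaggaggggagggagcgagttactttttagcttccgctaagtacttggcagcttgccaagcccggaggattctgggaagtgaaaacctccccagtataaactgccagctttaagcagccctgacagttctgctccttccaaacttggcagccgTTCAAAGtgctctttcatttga
Between Ets2 and Psmg1, chr16:95869641-95869840: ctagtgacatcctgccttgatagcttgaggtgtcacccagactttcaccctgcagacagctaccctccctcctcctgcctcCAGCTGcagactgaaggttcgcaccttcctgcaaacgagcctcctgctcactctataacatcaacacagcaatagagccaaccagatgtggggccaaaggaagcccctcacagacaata

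The capitals in the histone-cluster and Borcs6 peaks are 2 copies of one tRNA-Ser gene, read on opposite strands. A comparison by strand gave the same 82 bases in both, and 3 autosomal copies had them in all. Heights were 7.63 and 5.39 in the histone cluster and 10.1 and 6.95 beside Borcs6, for replicates 1 and 2. The Irf2bpl peak had 9.47 and 9.88, and the peak between Ets2 and Psmg1 had 6.51 and 8.57. All 4 stood far above the library medians of 0.625 in replicate 1 and 0.828 in replicate 2.

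**Figure D1:**
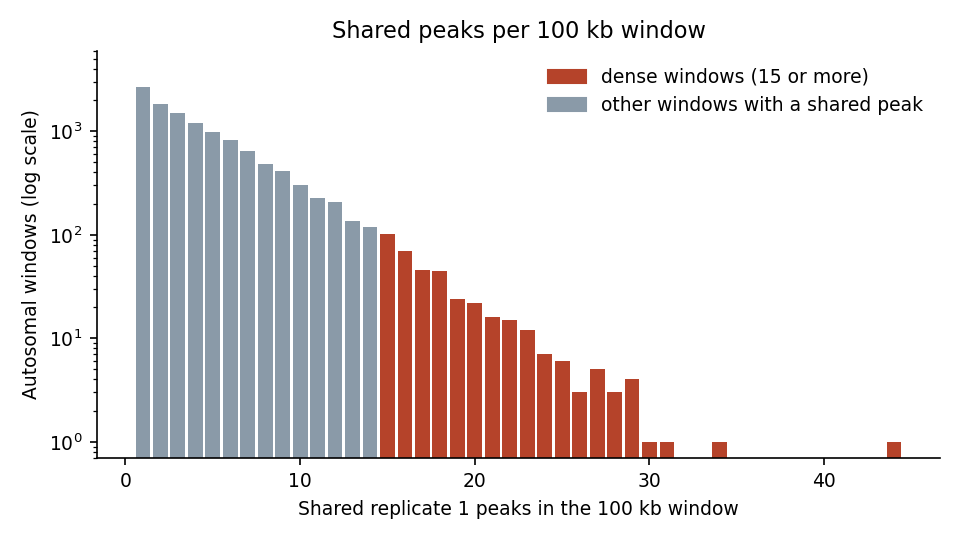
Number of autosomal 100 kb windows (log scale) with each count of shared replicate 1 peaks. Red bars are the 384 dense windows, grey bars the windows with 1 to 14 shared peaks, and the 12718 windows with none are not drawn. The counts run down to a single window with 44.

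The count of shared peaks fell away smoothly across windows, with no gap at the threshold. Of all autosomal windows 12718 had no shared peak, and the median over those with at least 1 was 3. Just inside the threshold stood 102 windows with 15 shared peaks, and just outside it 118 windows with 14. Promoters made up 41.2% of the shared peaks in the windows with 15 and 31.6% in those with 14. Median heights of shared peaks were 2.03 with 15 and 1.94 with 14 in replicate 1, and 1.27 and 1.23 in replicate 2. The windows at either side of the threshold were thus close in height and less close in promoter share.

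A dense window had a median of 17 shared peaks, with quartiles of 15 and 20. The median was 29 peaks in all from replicate 1 and 20 from replicate 2. Shared peaks stood at 181 per Mb in the dense windows and 20.2 per Mb in the rest of the autosomes. Overlapping shared peaks were joined into regions, and gaps between neighbouring regions of the same window were measured. Their median was 1770 bp in dense windows and 5300 bp elsewhere. Gaps across a window edge were left out, and windows with a single region or none gave no gap. The spacing elsewhere is therefore understated. Some peaks of replicate 1 overlap each other, and 60 of the 384 windows had fewer than 15 regions once these were joined.

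Dense windows were unevenly spread over chromosomes. Chromosome 11 held 55 of them, 4.50% of its windows, chromosome 17 held 30, 3.16%, and chromosome 7 held 40, 2.75%. The lowest share was that of chromosome 18, which held 2, 0.220%, followed by chromosome 14 with 5, 0.400%. Protein-coding genes stood at 13.4 per Mb on chromosome 11, 13.9 on chromosome 7 and 7.22 on chromosome 14, so the gene-rich chromosomes 7 and 11 differed in their share of dense windows. Single windows made up 252 of the 384, while 132 windows, 34.4%, lay in 52 runs of 2 or more neighbours.

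The longest run joined 5 windows at chr10:81100001-81600000, with 95 shared peaks. It holds Eef2, a translation elongation factor, Fzr1, an activator of the anaphase-promoting complex, the co-repressor genes Tle2, Tle6 and Aes, and the zinc-finger gene Zbtb7a. Runs of 4 windows covered 2 stretches of the major histocompatibility complex. One, chr17:33900001-34300000, had 79 shared peaks and holds H2-K1, H2-Aa, Tap1 and Psmb8, all used in presenting peptides to T cells. The other, chr17:35800001-36200000, had 82 and holds H2-T3, H2-T22, H2-T23 and Tubb5. The run at chr6:124700001-125100000 had 70 and holds the co-receptor gene Cd4, its neighbour Lag3 and the phosphatase gene Ptpn6.

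The window with the most shared peaks was chr11:52200001-52300000, with 44. It holds Tcf7, which encodes TCF1, a transcription factor needed early in the T lineage, and Skp1a, a subunit of SCF ubiquitin ligases. Replicate 1 listed 69 peaks there and replicate 2 listed 61. Of the 44 shared peaks 5 were at promoters, and the median height was 1.54 in replicate 1 and 0.791 in replicate 2. The window was thus the fullest by number, while its median in replicate 2 lay under that library's median of 0.828. Its highest peak, chr11:52275401-52275740, lies in an intron of Tcf7 and had heights of 5.69 and 5.30, above the Tcf7 promoter with 4.05 and 3.53.

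Cd2, whose product helps T cells stick to their partners, was the only protein-coding gene to start in the next window, chr3:101200001-101300000. That window had 34 shared peaks, of which 29 were distal. The highest, the Cd2 sequence shown above, lies 7772 bp from a Cd2 start, and its heights of 13.5 and 9.57 exceeded the 4.20 and 2.64 of the Cd2 promoter. The window of Cd8a and Cd8b1, which encode both chains of the CD8 co-receptor, followed with 30 shared peaks at chr6:71300001-71400000. Replicate 1 listed 112 peaks in it, the most of any dense window, against 34 in replicate 2. Most of the replicate 1 peaks there were therefore not shared. The promoter peaks had 6.08 and 8.04 at Cd8a and 6.94 and 9.01 at Cd8b1.

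The third window, chr13:23500001-23600000, with 31 shared peaks, holds 14 replication-dependent histone genes. Its highest peak, with 16.3 in replicate 1 and 12.1 in replicate 2, stood at the start of Hist1h4h, a histone H4 gene. Histone genes in divergent pairs shared a promoter peak, such as Hist1h2ad and Hist1h2bf with 8.62 and 7.28 at both. Median heights of its shared peaks were 5.34 and 2.19.

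Ccnd3, which encodes cyclin D3, and Taf8, a TFIID subunit, start in chr17:47500001-47600000, with 29 shared peaks. An intronic peak of Ccnd3 at chr17:47511201-47511440 had 15.4 and 11.1, and the highest Ccnd3 promoter peak 7.76 and 8.03. In chr11:69000001-69100000, also with 29, the promoter of the circadian repressor gene Per1 had 11.9 and 15.1. That of the mitotic kinase gene Aurkb had 4.45 and 3.95 in the same window. Gins2, part of the replicative helicase, had 14.9 and 16.3 in chr8:120500001-120600000, where 28 peaks were shared.

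Ddit4, a stress-induced inhibitor of mTORC1 signalling, had a promoter peak of 13.4 and 21.7 in chr10:59900001-60000000, with 28 shared peaks. Irf2bpl, a nuclear zinc-finger protein gene and the only protein-coding gene of chr12:86800001-86900000, had 10.0 and 12.4 among 29 shared peaks. In chr7:25200001-25300000, with 28, promoters made up 71.4% of the shared peaks, the highest share in the top 12. The promoter of Cic, a transcriptional repressor, had 18.2 and 17.1 there, that of the kinase gene Gsk3a 12.5 and 10.7, and that of the ETS repressor gene Erf 5.58 and 5.63. Nup214, a nuclear pore gene, begins before its window, which had 29. The peak at a later Nup214 start inside that window had 3.09 and 2.33. In the window of Poc1b, a centriole gene, with 27, the promoter peak nearest to Poc1b had 3.20 and 2.80. That nearest to Galnt4 had 5.17 and 3.33 and also lay within 500 bp of a Poc1b start.

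Dense windows were rich in genes. Of the 12153 autosomal windows in which no protein-coding gene starts, 13 were dense, 0.107%. The share was 0.910% with 1 gene, 1.93% with 2, 5.44% with 3 to 4, 11.4% with 5 to 7 and 32.9% with 8 or more. The last class had 51 dense windows among 155. Within the dense windows, the median promoter share of shared peaks was 0% with no gene, 18.8% with 1, 23.5% with 2, 37.5% with 3 to 4, 53.3% with 5 to 7 and 72.2% with 8 or more. A promoter peak is defined by a coding start nearby, so part of this rise with the number of genes is built in. By the median share, distal peaks were the larger part with up to 4 genes and promoters with 5 or more.

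**Figure D2:**
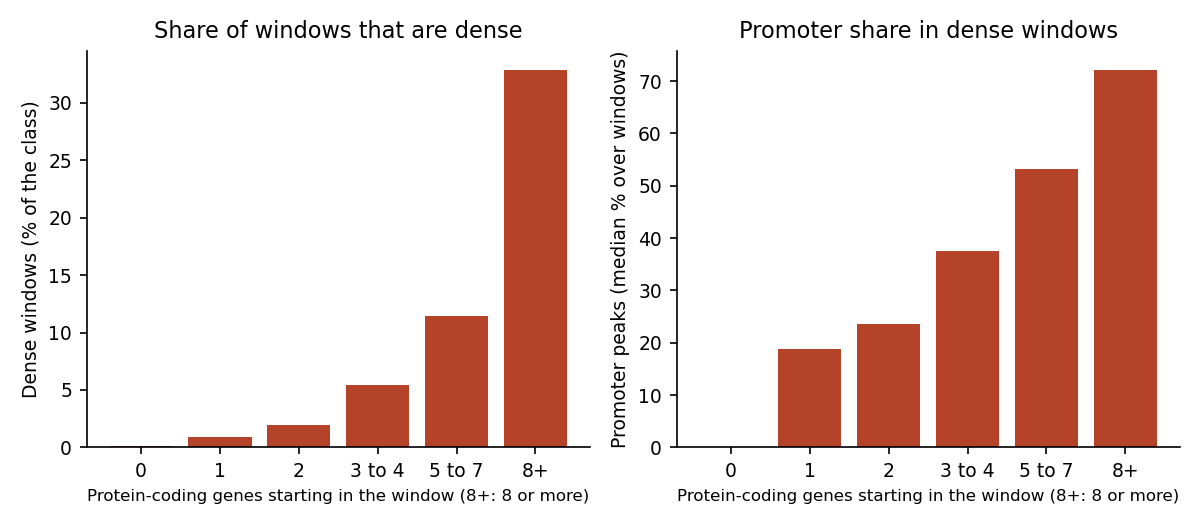
Left, the percentage of autosomal 100 kb windows that were dense, by the number of protein-coding genes that start in the window. Right, the median percentage of shared peaks at promoters over the dense windows of each class, which goes from 0 without a gene to 72.2 with 8 or more.

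In all, 1548 of the 20807 autosomal protein-coding genes, 7.44%, had a start in a dense window. A peak lay within 500 bp of a start of 89.2% of them in replicate 1 and 85.8% in replicate 2. The background over all autosomal genes was 64.7% in replicate 1 and 59.1% in replicate 2. Since peaks chose the windows, part of that difference is built in. Where a promoter peak was present, its median height was 5.30 for genes of the dense windows and 4.31 for other genes in replicate 1, and 4.90 and 4.08 in replicate 2.

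Promoters, taken as midpoints within 1 kb of a protein-coding start, made up 31.7% of all replicate 1 peaks in dense windows and 23.8% elsewhere. In replicate 2 the shares were 39.9% and 37.6%. The gap was 7.89 percentage points in replicate 1 and 2.26 in replicate 2. Over both replicates the share was 35.8% ± 5.75 in dense windows and 30.7% ± 9.73 elsewhere (SD, n = 2 each). The gap between these means was smaller than either spread between libraries, while within each library the gap was positive. Among shared peaks alone the share was 39.8% ± 0.101 in dense windows and 37.4% ± 0.0441 elsewhere (SD, n = 2 each). Shared peaks of both libraries overlap by definition, so this small spread is largely built in and does not measure replication. Of shared peaks of replicate 1 in dense windows, 5.61% lay in exons, 26.1% in introns and 28.5% between genes.

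The promoter share differed widely among dense windows, between 0% and 95.2% with a median of 40.0%. It was 50% or more in 136 windows, 20% to under 50% in 170, above 0% and under 20% in 62, and 0% in 16. The highest share belonged to chr11:69900001-70000000, where 20 of 21 shared peaks were promoters of genes such as Eif5a, a translation factor, Gabarap, used in autophagy, and Gps2, a co-repressor subunit. Then came chr4:129600001-129700000 with 93.3%, which holds Eif3i, a subunit of a translation initiation factor, and Kpna6, a nuclear import adaptor. In chr19:6900001-7000000 the share was 91.3% over 14 genes, among them Esrra, a nuclear receptor, and Bad, a cell death gene of the BCL2 family.

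The windows at the other end had no promoter peak at all. The one with most shared peaks, 27, was chr16:95800001-95900000, whose centre lies 132267 bp from the nearest coding start, that of the ETS-family gene Ets2. It holds the long non-coding RNA gene 1600002D24Rik. Replicate 2 listed 63 peaks there and replicate 1 listed 35, the reverse of the usual order. In chr6:41500001-41600000, with 23 shared peaks, lie the D, J and C segments of the T-cell receptor beta locus, which GENCODE does not class as protein-coding. Then came 2 windows with 20 shared peaks each, chr2:166600001-166700000 at Prex1, an exchange factor for Rac, and chr8:126800001-126900000, in which no protein-coding gene starts.

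No protein-coding gene starts in 13 of the dense windows. The coding starts nearest to their centres were those of Ets2, Tomm20, Tbc1d22a, Rasgrp1, Irf2bp2, 3110018I06Rik, Ldlrad3, Ets1, Uaca, Smndc1, Lef1, Pdia4 and Mef2a. Of these genes Ets1 and Lef1 are on the list of T-lineage transcription factors, and none is on another list. The window chr2:117400001-117500000 has its centre 107000 bp from Rasgrp1, a Ras activator downstream of the T-cell receptor, and had 18 shared peaks. The window chr9:32700001-32800000, with 17, covers the 3′ part of Ets1, and chr3:130900001-131000000, with 15, lies before Lef1, which encodes a TCF-family partner of TCF1. The window chr12:107100001-107200000, with 17, had the greatest distance, 338631 bp from its centre to the start of 3110018I06Rik, and the next coding gene on that side is Bcl11b, a factor of T-cell commitment. Median heights over these 13 windows centred on 1.84 in replicate 1 and 1.19 in replicate 2, against 2.12 and 1.41 over all dense windows.

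**Figure D3:**
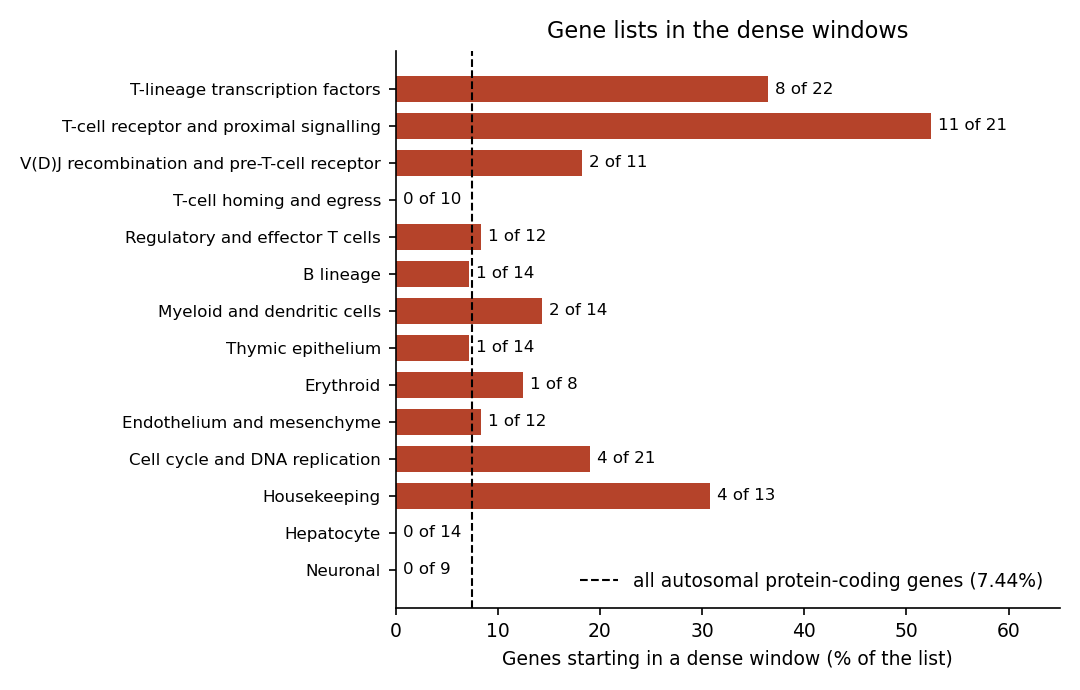
Percentage of each gene list with a protein-coding start in a dense window, with counts beside the bars. The dashed line marks the 7.44% of all autosomal protein-coding genes. The lists on T-lineage factors, with 8 of 22 genes, the T-cell receptor, with 11 of 21, and housekeeping, with 4 of 13, lie farthest above it, and 0 of 10 genes of T-cell homing are members.

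Genes of the T-cell receptor and its proximal signalling were found in dense windows in 11 of 21 cases, against the 7.44% of all genes. The CD3 chains of the receptor were all among them. Promoter heights in replicates 1 and 2 were 5.00 and 1.98 at Cd3d, 5.13 and 4.06 at Cd3e, and 7.01 and 7.42 at Cd3g. Cd247, which encodes the zeta chain, had 4.07 and 3.30, and Cd4 had 2.88 and 1.51. Of these, Cd3g was highest and Cd4 lowest in both libraries. Among the signalling genes, the kinase gene Lck had 6.93 and 8.03 and the adaptor gene Lcp2 4.25 and 2.83. The median gene of the list lay in a window with 16 shared peaks, against 5 for all genes.

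The 10 remaining genes of that list lay in windows with 5 to 14 shared peaks. Cd5 and Cd6, neighbouring co-receptor genes that restrain signalling, were just under the threshold with 14. Cd28, a costimulatory receptor gene, had 13 and Zap70, the kinase recruited to the receptor, had 11. The lowest were Fyn and Ptprc with 6 and Themis with 5. A gene central to T cells was thus not always in a dense window.

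T-lineage transcription factors were in dense windows in 8 of 22 cases. Id3, an antagonist of E proteins, had 26 shared peaks in its window, and Satb1, a chromatin organiser, had 21. Lef1 had 17, and Ets1, Zbtb7b and Sox4 had 16. Gata3, needed for CD4 T cells, stood at the threshold with 15. Promoter heights differed more than these counts, with 10.0 and 11.1 at Sox4, 9.54 and 10.8 at Ets1 and 7.42 and 9.57 at Satb1. They were 4.09 and 3.67 at Gata3, 3.21 and 3.95 at Lef1, and 1.11 and 1.95 at Zbtb7b, which directs thymocytes to the CD4 lineage. Notch1, a receptor for the signal that starts T-cell development, and Tcf3, an E protein gene, had 14 and were not members, nor were Runx3 with 12, Bcl11b with 11 and Runx1 with 7.

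In the list on V(D)J recombination and the pre-T-cell receptor, 2 of 11 genes were in dense windows. Dntt, which adds nucleotides at junctions, had 20 shared peaks in its window and promoter heights of 2.00 and 0.962. Ptcra, the pre-T-cell receptor alpha chain, had 15 shared peaks. The recombinase genes Rag1 and Rag2 share a window with 10. None of 10 genes of homing and egress was in a dense window, and the fullest of their windows held 14, at Ccr7. Of 12 genes of regulatory and effector T cells, 1 was in a dense window.

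Lists for other cells had at most 2 members each in dense windows, beside the background of 7.44%. There was 1 of 14 B-lineage genes, Spib, 1 of 14 thymic epithelial genes, Prss16, and 1 of 12 endothelial and mesenchymal genes, Pecam1. Myeloid and dendritic cells had 2 of 14, Cebpb and Mpo, and erythroid cells 1 of 8, Klf1. No promoter peak was listed at Mpo, Klf1 or Pecam1 within their windows, and that at Spib had 1.19 and 1.06. Pecam1 begins outside its window, so only a later start of it was examined there. As at Mpo and Klf1, a gene of a list can thus lie in a dense window with no promoter peak of its own there. Hepatocyte and neuronal genes were in none, of 14 and 9. Cell-cycle genes were members in 4 of 21 cases, 19.0%, and housekeeping genes in 4 of 13, 30.8%, beside 36.4% of the T-lineage factors. The housekeeping members had replicate 1 promoter heights from 7.23 at Tubb5 to 19.0 at Rplp0.

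Gene families that stand in clusters differed strongly. Of 66 histone genes named Hist1, Hist2 or Hist3 there were 52 that start in dense windows, 78.8%, and of 34 H2 genes of the major histocompatibility complex 14, 41.2%. Peaks at the promoters of clustered genes count towards the threshold, so part of such membership is built in. In the Hist2 window chr3:96200001-96300000, 13 of 17 shared peaks were at promoters. Of 385 zinc-finger genes named Zfp there were 17, 4.42%, below the background of 7.44%. Of 1128 olfactory receptor genes there were 3, 0.266%, and none of these had a promoter peak. Clustering of genes alone therefore went with both high and low membership.

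Histone genes supply nucleosomes in S phase, and 50 of them lie in 5 dense windows with 5 or more histone genes each. These windows had 107 shared peaks, 61 at promoters, with median promoter heights of 5.94 in replicate 1 and 2.84 in replicate 2. Upstream stretches of 3 histone H4 genes are shown to display their letters, from 150 bases before the RefSeq start up to it on the gene's own strand, from RefSeq on GRCm38.p6. Capitals mark CCAAT or TATAAA on either strand.
Hist1h4i, chr13:22041363-22041512, minus strand: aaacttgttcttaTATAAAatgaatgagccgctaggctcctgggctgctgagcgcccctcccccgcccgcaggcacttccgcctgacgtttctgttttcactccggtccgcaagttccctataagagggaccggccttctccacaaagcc
Hist1h4d, chr13:23581418-23581567, plus strand: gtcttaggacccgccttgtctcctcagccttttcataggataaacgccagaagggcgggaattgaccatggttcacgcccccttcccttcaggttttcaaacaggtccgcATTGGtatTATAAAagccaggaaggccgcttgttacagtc
Hist1h4a, chr13:23761250-23761399, minus strand: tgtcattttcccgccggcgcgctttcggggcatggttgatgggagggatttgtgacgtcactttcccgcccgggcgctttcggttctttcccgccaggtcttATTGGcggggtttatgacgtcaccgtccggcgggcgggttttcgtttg

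CCAAT, bound by NF-Y, was found in 40 of the 48 histone promoters matched in the RefSeq table, 83.3%, and in 24.2% of 31348 other promoters over the same 150 bases. TATAAA was found in 18 of the 48, 37.5%, and in 7.52% of the others. Of the 52 histone genes 4 had no match in that table. Promoter peaks had heights of 14.8 and 10.1 at Hist1h4i, 14.1 and 9.55 at Hist1h4d and 12.7 and 14.3 at Hist1h4a. Hist1h4a was thus higher in replicate 2, and the other H4 genes shown were higher in replicate 1.

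Transfer RNA genes accounted for a further group of peaks. These genes are transcribed by RNA polymerase III from promoters that lie inside the gene. Of 386 autosomal tRNA genes in RefSeq 85 lay in dense windows, 22.0%, in 15 of the windows, beside 7.44% of protein-coding genes. A replicate 1 peak overlapped 89.4% of these tRNA genes and 51.5% of those elsewhere, and a replicate 2 peak 83.5% and 40.9%. Peaks on tRNA genes counted towards the threshold, so part of this membership and of these differences is built in. Of the 4179 shared distal peaks in dense windows 65 lay on a tRNA gene, 1.56%, and of 30662 elsewhere 100, 0.326%. A small share of the distal peaks in dense windows was therefore of this kind, concentrated in few windows.

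The tRNA peaks were high. Their median height in dense windows was 4.59 in replicate 1 and 2.46 in replicate 2, against 1.89 and 1.20 at the other distal peaks there. Outside the dense windows tRNA peaks had 4.32 and 2.42, values close to those inside them. The fullest windows were chr13:23400001-23500000 with 22 tRNA genes, chr13:23500001-23600000 with 13 and chr11:69000001-69100000 with 11. Without the peaks on tRNA genes 6 windows would have had fewer than 15 shared peaks, among them chr13:23400001-23500000 with 11 and chr11:69100001-69200000 with 9. Of the 85 genes 56 have an identical copy on the autosomes. How reads from such copies were placed is not given in the sources used here, so heights at single copies are uncertain.

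Heights of the shared peaks were greater in the dense windows in both libraries. The median was 2.13 in dense windows and 1.60 elsewhere in replicate 1, and 1.41 and 0.927 in replicate 2. At shared promoters it was 2.66 and 2.35 in replicate 1, and 2.08 and 1.76 in replicate 2, for dense windows and elsewhere. At shared distal peaks it was 1.92 and 1.39 in replicate 1, and 1.19 and 0.753 in replicate 2. The ratio of dense to other windows was thus larger at distal peaks, 1.38 and 1.58 in replicates 1 and 2, than at promoters, 1.13 and 1.19. Peaks that were not shared also stood higher in dense windows, with medians of 0.585 and 0.353 in replicate 1 and 0.574 and 0.406 in replicate 2.

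**Figure D4:**
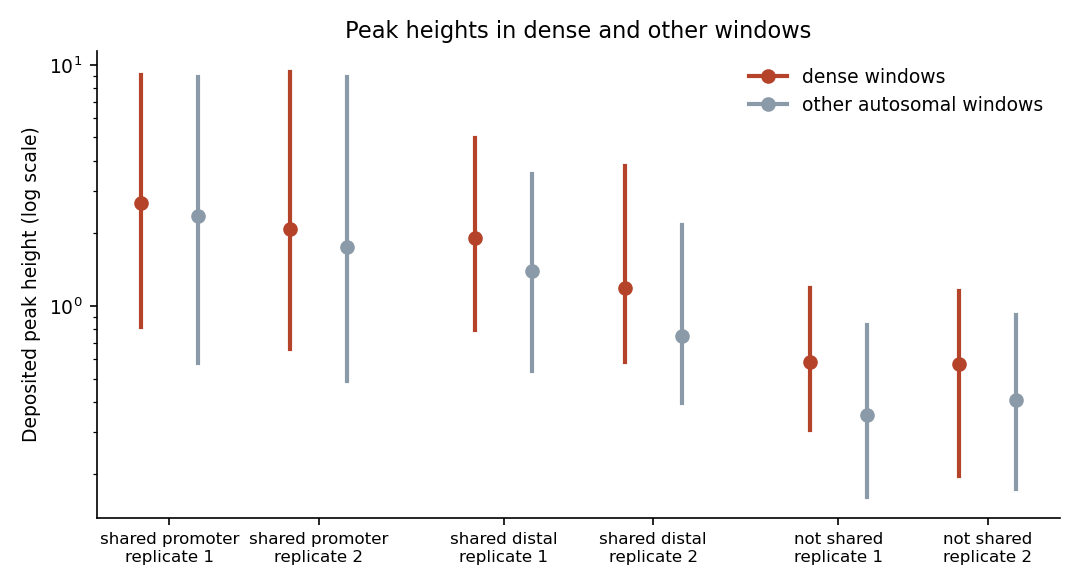
Deposited peak height (log scale) for shared promoter, shared distal and unshared peaks in each replicate, dense windows in red to the left of the other autosomal windows in grey. Points are medians and bars span the 10th to the 90th percentile over peaks. Each dense-window median lies above its neighbour.

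The very highest peaks of the autosomes were not in dense windows. The maximum was 22.8 in dense windows and 57.2 elsewhere in replicate 1, and 27.2 and 47.8 in replicate 2. Shared peaks were divided at the quartiles of height, and heights above 3.16 in replicate 1 and 2.10 in replicate 2 formed the top class. It held 33.1% of the shared peaks of dense windows in replicate 1, 2298 of 6950, and 35.2% in replicate 2, 2478 of 7033. Elsewhere it held 11709 of 48991 shared peaks in replicate 1 and 11697 of 49590 in replicate 2, a smaller share in both. Within this class promoters made up 53.0% in dense windows and 65.5% elsewhere in replicate 1, and 55.9% and 71.7% in replicate 2. High peaks of dense windows were therefore distal more often than high peaks elsewhere in both libraries.

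Promoter peaks of the dense windows were ranked by their height over the library median, averaged over both libraries. Fzr1 came first by this mean, with heights of 20.4 in replicate 1 and 27.0 in replicate 2 at chr10:81378541-81378780. Eif5a followed with 22.8 and 23.7, the highest in replicate 1, and Esrra with 19.2 and 27.2, the highest in replicate 2. The RNA helicase gene Ddx54 had 19.5 and 24.9, and Ruvbl2, an ATPase of chromatin remodelling complexes, had 18.9 and 23.1. Then came Pop7, a subunit of RNase P, with 17.6 and 21.6, Hexim1, an inhibitor of the elongation factor P-TEFb, with 18.8 and 19.9, and the splicing factor gene Sf1 with 17.6 and 20.8. All 8 were higher in replicate 2, whereas most shared peaks of dense windows, 76.9%, were higher in replicate 1.

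The first distal peak by the same mean, chr10:80159781-80160140, had 16.5 and 21.4 and lies 6024 bp from Cirbp, a cold-inducible RNA-binding protein gene. The next, 10344 bp from Tmem120b, had 16.3 and 17.7. A peak 16803 bp from Gnl1 in the major histocompatibility complex had 19.2 and 12.7, the highest of the 8 in replicate 1. Others lay 1335 bp and 39115 bp from Ptma, which encodes prothymosin alpha, with 14.6 and 18.0 and with 14.9 and 16.0. Some of the 8 lie at starts of non-coding genes, since the peak assigned to Spen is 208 bp from the pseudogene B330016D10Rik and that assigned to Chd2 is 196 bp from the transcript 1810026B05Rik. The peak 2573 bp from Kcnn1, a potassium channel gene, had 15.3 and 15.7.

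Distal peaks of dense windows lay nearer to genes. Their median distance to a protein-coding start was 6890 bp, against 16243 bp elsewhere, and 60.5% lay within 10 kb, against 37.4%. Over 100 kb away lay 2.37% in dense windows and 10.8% elsewhere. A start of any gene type lay within 1 kb of 9.50% of the shared distal peaks of replicate 1 in dense windows and of 7.08% elsewhere.

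Footprints are deposited at a single value of 0.01 in every row, so only their number was used. There were 2.88 per peak in dense windows and 2.31 elsewhere in replicate 1, and 2.77 and 2.49 in replicate 2. Peaks of dense windows were also wider, with means of 280 and 225 bp in replicate 1 and 224 and 204 bp in replicate 2. Per kb of peak the numbers were close, 10.3 and 10.2 in replicate 1 and 12.3 and 12.2 in replicate 2. For shared peaks of the top height class the numbers per peak were 5.01 and 5.04 in replicate 1 and 4.36 and 4.64 in replicate 2. In the lowest class they were 1.68 and 2.12 in replicate 1 and 1.28 and 1.43 in replicate 2. At like height, dense windows had no more footprints per peak than the rest in 7 of the 8 comparisons, and the exception was the third class of replicate 1 with 4.31 and 4.25.

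The authors' list of bases with a high cut rate gave the same picture without peak calls. It covered 15.4% of the bases of dense windows and 1.98% elsewhere in replicate 1, and 7.97% and 0.843% in replicate 2. Dense windows ranged from 7.43% to 52.8% in replicate 1 and from 2.97% to 24.3% in replicate 2. Since peaks and listed bases come from the same reads, this is not independent of the rule.

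Base composition moved in opposite directions at the 2 kinds of peak. Median GC content of shared distal peaks was 54.0% in dense windows and 51.5% elsewhere in replicate 1, and 54.5% and 52.0% in replicate 2. At shared promoters it was 60.5% in dense windows and 63.0% elsewhere, and 61.5% and 64.0% in replicate 2. Promoters of dense windows were thus poorer in GC and their distal peaks richer. The ratio of observed to expected CpG at shared promoters was 0.634 in dense windows and 0.748 elsewhere in replicate 1.

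Short motifs were counted in the central 200 bp of shared distal peaks on both strands, and the letters of the 9 motifs are given here and above. The E box CAGCTG occurred in 22.7% in dense windows and 20.6% elsewhere in replicate 1, and in 24.0% and 21.4% in replicate 2. GGGCGG, the GC box, occurred in 14.3% and 11.1%, and in 14.9% and 11.8%. TGTGGTT for RUNX was less frequent in dense windows, with 7.25% against 9.19% in replicate 1 and 7.69% against 8.99% in replicate 2. AGATAA for GATA had 5.70% against 7.60%, and 5.28% against 7.09%, and CTTTGAA for TCF/LEF had 4.21% against 5.44%, and 4.13% against 5.06%. GC content differed between these peaks as given above, and its part in the motif shares was not tested. CCGGAAG for ETS had 3.61% against 3.08% in replicate 1, and AGGGGGC for CTCF had 10.7% against 11.7%. CCAAT had 18.2% against 18.9%, and TATAAA had 4.93% against 6.12%.

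Heights of shared peaks were closely related between libraries. Pearson's r of log2 heights was 0.908 over the 6950 shared peaks in dense windows and 0.898 over the 48991 elsewhere, as a description across peaks of 2 libraries. The median log2 ratio of replicate 1 to replicate 2 was 0.389 in dense windows and 0.518 elsewhere. At promoters it was 0.194 and 0.188, and at distal peaks 0.522 and 0.726. The ratio was thus lower at promoters than at distal peaks. The scaling of heights is not given, so any constant factor between the libraries would be part of each ratio.

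The ratio also varied from window to window. The 5 windows with 5 or more histone genes had median log2 ratios of replicate 1 to replicate 2 between 0.774 and 1.10, and 0.873 over their 107 shared peaks. The other dense windows together had 0.382. It was 0.821 at the promoters and 0.969 at the distal peaks of the histone windows. Peaks on tRNA genes had a like ratio of 0.873 at distal sites in dense windows, against 0.515 at the other distal peaks there. The histone and tRNA groups overlap: in the histone window chr13:23500001-23600000, 11 of 18 shared distal peaks lie on tRNA genes. Of all dense windows 2 with histone clusters had the highest ratios, followed by the windows of Sla with 0.960, of Abt1 with 0.955 and of the 3′ part of Ets1 with 0.950. Next came the window of Cd3d and Cd3g with 0.920 and that of Cd3e with 0.898. The window of Abt1, chr13:23400001-23500000, is the one with 22 tRNA genes, and 14 of its 25 shared peaks lie on them. Some windows thus differed between the libraries in one direction over many peaks, and a difference between libraries and one between animals cannot be told apart here.

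**Figure D5:**
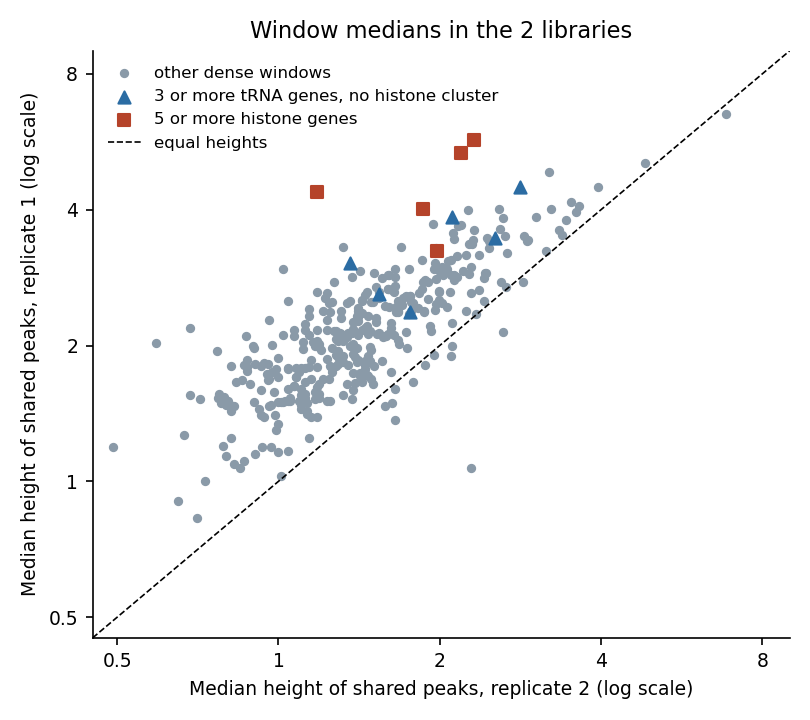
Median height of shared peaks in each dense window, replicate 1 against replicate 2, both on log scales. Squares are the 5 windows with 5 or more histone genes, triangles other windows with 3 or more tRNA genes, and the dashed line marks equal heights. All 5 squares lie well above the line, and the point farthest below it is the window of Sfi1.

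The window farthest in the other direction was chr11:3100001-3200000, with 22 shared peaks, 21 of them distal, at the gene Sfi1. Its median log2 ratio was -0.813, with median heights of 1.07 in replicate 1 and 2.29 in replicate 2. The next lowest window had -0.113, so this one stood apart. Replicate 2 listed 35 peaks there and replicate 1 listed 28. In 32 of the 384 windows replicate 2 listed more peaks than replicate 1 although replicate 1 had the longer list over the series. These windows held 601 of the shared peaks.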

How the data were processed

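DNase-seq was analysed in 2 thymus libraries of 1 group, labelled replicates 1 and 2. The authors deposited peaks with a height per peak, which is a signal value that rises in whole steps of one size per library and whose scaling factor is not given in the sources used here. Peaks were called by the authors per library, per the descriptions deposited with each sample. They also deposited footprints, whose p-value column holds 0.01 in every row, and a list of bases with a high cut rate, whose false discovery rate, a p-value adjusted by the authors, stays under 0.05. The files use mm10, per the same deposited descriptions, and the aligner, the peak caller and the read depth are not given in the sources used here. Each sample has 2 peak files, and the one with more rows was used (132737 peaks in replicate 1, 69798 in replicate 2). Precision is shown only by the spread between the 2 libraries, and no interval that needs read counts is given.

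Midpoints were placed on a 100 kb grid, with sharing taken as an overlap of 1 bp. Every peak with its midpoint in a dense window counted as a member. Genes and starts came from GENCODE M21 and sequence, promoters and tRNA genes from RefSeq on GRCm38.p6. A peak was at a promoter within 1 kb of a protein-coding start, and a gene had a promoter peak within 500 bp of a start. Scripts ran in Python 3.11.15 with pandas 2.3.3, numpy 2.4.6 and pysam 0.24.0, samtools 1.23.1 and matplotlib 3.10.9. The interval functions and the rule for windows were tested on simulated data.

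The members, the 14 gene lists and the comparisons were chosen with earlier results of these data known. With 2 replicates of 1 group no test was made. Named genes were those of the 12 windows with most shared peaks, of the 8 highest promoter and 8 highest distal peaks, list members in dense windows, and genes of the windows with the lowest and highest promoter share. Genes of lists outside the windows, the runs, the windows without a coding start, the histone, tRNA and H2 genes, Sla, Abt1 and Sfi1 were named after their values were seen. Alternatives were other thresholds, grids, overlaps, peak files, promoter widths and gene types, joined peaks, equal numbers of peaks and shared peaks alone. In a further alternative the windows were chosen by either replicate alone. A few genes that the rule names are not reported here.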

Additional observations from a re-analysis of the deposited data

How the results depend on the processing

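Against 384 dense windows, 12042 replicate 1 peaks in them, 1548 genes and 19 genes of both T-cell lists, several alternatives moved one or more of these counts by over 1.5 times. The stricter peak files gave 122 windows, 3617 peaks, 615 genes and 10 list genes. A threshold of 20 gave 97, 3870, 447 and 8. An overlap of 50% of the replicate 1 peak gave 165, 5609, 799 and 10. A threshold of 12 gave 846 windows, 22601 peaks and 2917 genes. Choosing the windows by the peaks of one library alone gave 713 to 2411 windows. These held 18780 to 52465 replicate 1 peaks, 2570 to 5993 genes and 25 to 42 list genes. Shared peaks alone numbered 6950, in the same windows. Shifting the grid, joining peaks, taking equal numbers of the highest peaks, and leaving out windows with more replicate 2 than replicate 1 peaks, an alternative added after the data were seen, kept the number of windows between 324 and 356.

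The promoter share of 35.8% moved beyond the spread between replicates only with a promoter width of 500 bp, to 25.7%. The median height over the library median, 1.63, was 1.31 with equal numbers of peaks and 2.55 for shared peaks alone. It was 1.32 to 1.50 with windows chosen by either replicate alone, still as a mean over both libraries. Footprints per peak, 2.82, were 3.12 in the stricter files, 3.09 with equal numbers of peaks and 3.44 for shared peaks alone. They were 2.66 to 2.71, again over both libraries, with windows chosen by either replicate alone. The E box share of distal peaks, 23.4%, was 14.4% in 100 bp. The cause of these moves was not tested beyond the narrower search and fewer or more peaks counted. No paired comparison of groups was possible because there is only 1 group. Read depth is unknown, so how far it limits calls is unknown too. The windows follow the peak lists, which differ in length between the libraries.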

Other observations

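The rule covers the autosomes, and the X chromosome was looked at separately. Of its 1711 windows 4, 0.234%, had 15 or more shared peaks. Neighbouring windows at Bcor, a BCL6 co-repressor gene, had 21 shared peaks each, with median heights of 1.01 and 0.797 in the first and 1.30 and 1.06 in the second, for replicates 1 and 2. A window at Mid1, a ubiquitin ligase gene, had 19, with 1.52 and 1.28. The fourth, chrX:50600001-50700000, had 15, and its centre lies 191046 bp from the nearest coding start, that of the kinase gene Stk26. Its median heights of 5.87 in replicate 1 and 2.61 in replicate 2 were the highest of the 4.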
